A study of Homo sapiens with 3 samples.

Results

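The CC chemokine genes CCL2, CCL5, CCL20 and CCL28 and the colony-stimulating factor genes CSF1, CSF2 and CSF3 were followed by their names in the deposited gene table, where all 7 were found among 58735 genes. RNA sequencing had been done on 3 libraries from cells labelled HCT116, a human colorectal carcinoma line, with 1 library in each group. The groups, by the genotype in the labels, were cells overexpressing the ZEB1 K80R mutant, cells overexpressing wild-type ZEB1, and an empty vector control, and all 3 carried the same treatment label, control. K80R means that a lysine of ZEB1, a zinc-finger repressor of epithelial genes, is replaced by an arginine. The labels do not say whether a line was a clone or a pool. Per the series' own text, the overexpression lines had been checked by immunoblot before sequencing. The comparison of K80R with wild type addresses pro-inflammatory gene expression and NF-κB, which the title names, and the 7 genes encode secreted signals of that kind.

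CC chemokines are small secreted proteins, named for adjacent cysteines near the amino end, that guide leukocytes through G protein-coupled receptors. CCL2 draws monocytes through CCR2, CCL5 draws T cells and monocytes, CCL20 draws cells bearing CCR6, such as Th17 cells and immature dendritic cells, and CCL28 is a mucosal epithelial chemokine read by CCR3 and CCR10. Colony-stimulating factors drive the growth and survival of myeloid cells: CSF1 (M-CSF) acts on macrophages through CSF1R, CSF2 (GM-CSF) on granulocytes, macrophages and dendritic cells through CSF2RA and CSF2RB, and CSF3 (G-CSF) on neutrophils through CSF3R. Tumour cells can make several of them. NF-κB is a known activator of the CCL2, CCL5, CCL20 and CSF2 promoters, and the mRNAs of such cytokines often carry AU-rich elements that shorten their life.

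The deposited values were FPKM, fragments scaled to gene length and to a size set for each library, and the reads behind them could be recovered. The libraries held 13479517, 14322537 and 14764535 reads for K80R, wild-type ZEB1 and empty vector. Intervals in brackets are exact 95% counting intervals, Poisson for a level and conditional binomial for a ratio, and cover counting error only. With 1 library a group there was no replicate error to hold a difference against, so no p-value is given and every statement is on single libraries. ZEB1 itself had 10.3 FPKM in the K80R library, 9.83 FPKM in the wild-type ZEB1 library and 5.66 FPKM in the empty vector library, or 1.82 and 1.74 times empty vector with intervals above 1, and reads cannot tell the introduced copy from the cells' own. The empty vector library stood apart in its low counts: it had 350 genes with exactly 1 read, against 2902 in the K80R library and 2705 in the wild-type ZEB1 library. Whether this touches the low counts of the 7 genes in that library was not tested. Of 14 markers of colon epithelium, 9 had 0 reads in all 3 libraries, among them EPCAM, CDH1, CDX2 and VIL1, while the simple-epithelium keratins KRT8 and KRT18 lay at 41.6 and 48.0 FPKM in the K80R library, 49.5 and 51.7 FPKM in the wild-type ZEB1 library, and 41.3 and 51.5 FPKM in the empty vector library. In these defining markers the libraries went against the labelled tissue, colon, and every result below is on cells known by their label only.

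The regulatory sequences of CSF2 and CCL20 are shown first because these genes belong to those that differed most between the libraries and because their start regions hold a κB-type motif. RefSeq start windows (GRCh38.p14) were matched for 3 of the 7 genes, CCL20, CCL28 and CSF2; CCL2, CCL5, CSF1 and CSF3 are named only. The 250 bases before the start were searched on both strands for the κB-type motif (GGGAA, any 3 bases, then CC), the E-box CACCTG to which ZEB1 can bind, the AP-1 motif TGANTCA, the TATA box TATAAA and the CK-1 element of colony-stimulating factor genes, whose letters are the first capitals in the CSF2 sequence. No matches overlapped in the sequences below. Capitals mark the matches, which in CSF2 are, from left to right, the CK-1 element and the κB-type motif on the minus strand, and in CCL20 the κB-type motif and the TATA box.
CSF2, chr5:132073539-132073788, plus strand: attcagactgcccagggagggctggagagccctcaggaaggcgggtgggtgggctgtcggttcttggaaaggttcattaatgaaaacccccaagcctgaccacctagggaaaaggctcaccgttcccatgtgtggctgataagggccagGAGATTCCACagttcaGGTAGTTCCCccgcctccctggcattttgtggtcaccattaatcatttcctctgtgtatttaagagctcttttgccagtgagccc
CCL20, chr2:227813592-227813841, plus strand: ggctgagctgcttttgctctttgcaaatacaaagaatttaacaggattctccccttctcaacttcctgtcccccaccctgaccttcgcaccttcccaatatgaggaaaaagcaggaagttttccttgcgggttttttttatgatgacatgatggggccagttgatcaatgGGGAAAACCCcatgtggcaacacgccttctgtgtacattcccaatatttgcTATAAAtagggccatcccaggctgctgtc

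The κB-type motif lay 85 to 76 bases before the CSF2 start and 80 to 71 bases before the CCL20 start, and 6.02% of all 35116 windows of this length held it. CK-1 lay 101 to 92 bases before the CSF2 start and was present in 14 windows in all, or 0.0399%. It was searched as a fixed string with no free base, so this share cannot be set beside that of the κB-type motif. Because CK-1 is an element of colony-stimulating factor genes, its match in CSF2 is a description and its low share is no support. The TATA box of CCL20, 29 to 24 bases before the start, was present in 10.7% of windows. Neither gene had the letters CACCTG or TGANTCA in this stretch, which 17.5% and 6.57% of windows held. CCL28 had CACCTG 39 to 34 bases before 1 of its 2 starts and no other match, and its other window had none. The start of CCL20 used by RefSeq lies inside the gene as the deposited table bounds it. A match describes letters and shows no binding.

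The 3′ UTRs differed widely in the AU-rich pentamer ATTTA, the core of the element bound by the decay factor ZFP36. CSF2 held 8 of them in 318 bases, or 25.2 per kilobase, where the median of 18520 protein-coding genes was 1.39 and only 0.162% of genes were as dense. CSF3 held 7 in 854 bases (8.20 per kilobase) and CCL20 held 3 in 451 bases (6.65 per kilobase). CCL2, with 2.66, CCL28, with 2.62, and CSF1, with 1.86 per kilobase, lay nearer the median, and CCL5 had 0. The longer form TTATTTATT was found in CSF2, 3 times, and in CCL28, once, and in 7.30% of all genes. The densest 30 bases of the 3′ UTRs of the 3 colony-stimulating factors are set under each other, with each pentamer in capitals, to show the contrast of CSF2 with its family. The sequences are of GENCODE 29 transcripts, read 5′ to 3′.
CSF2, bases 220 to 249 of its 3′ UTR: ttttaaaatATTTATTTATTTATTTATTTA
CSF3, bases 16 to 45 of its 3′ UTR: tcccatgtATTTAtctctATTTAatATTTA
CSF1, bases 2073 to 2102 of its 3′ UTR: tttatataaagtcATTTAaatatctATTTA

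CCL2, the monocyte chemokine (ENSG00000108691; GRCh38, chromosome 17, 34255218 to 34257203, plus strand), was measured by 226 reads (8.54 FPKM) under K80R, 752 reads (27.4 FPKM) under wild-type ZEB1 and 102 reads (3.23 FPKM) under empty vector. The wild-type ZEB1 library was the highest and the empty vector library the lowest, and none of the 3 counting intervals met. In K80R the level was 0.311 times that of wild type (0.267 to 0.362), though still 2.64 times that of empty vector (2.08 to 3.37). The ratio of wild type to empty vector was 8.49 (6.90 to 10.5). Because these are bulk libraries, more cells making a transcript and more of it per cell cannot be told apart.

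CCL20, the CCR6 ligand (ENSG00000115009; chromosome 2, 227805739 to 227817564, plus strand), had 0.471 FPKM in the K80R library, 3.27 FPKM in the wild-type ZEB1 library and 0.829 FPKM in the empty vector library, from 10, 72 and 21 reads. The wild-type level stood above the other levels, whose intervals overlapped. K80R was at 0.144 times wild type (0.0662 to 0.280). Against empty vector, K80R was at 0.568 times, with an interval of 0.239 to 1.26 that holds 1, and wild type was at 3.95 times (2.40 to 6.76).

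CCL5, which recruits T cells and monocytes (ENSG00000271503; chromosome 17, 35871491 to 35880793, minus strand), had 5 reads under K80R, 69 reads under wild-type ZEB1 and 0 reads under empty vector, or 0.248, 3.31 and 0 FPKM. Most of its reads came from the wild-type ZEB1 library. The level in K80R was 0.0750 times that in wild type (0.0236 to 0.184). A count of 0 was taken to allow up to 3 reads, worth 0.125 FPKM for this gene in the empty vector library. This limit is below the 0.154 FPKM at the top of its counting interval. At the deposited scaling and the 3-read limit wild type, with its count taken as exact, was thus at least 26.5-fold higher than empty vector. The 0 comes from the library with only 350 genes of exactly 1 read, against 2705 in the wild-type ZEB1 library. The intervals of K80R (0.0806 to 0.579 FPKM) and empty vector (0 to 0.154 FPKM) overlapped, and no fold is given for that pair. Of 6344 protein-coding genes with 0 reads in the empty vector library, CCL5 was the only 1 to reach 3.31 FPKM in the wild-type ZEB1 library. An antisense gene that overlaps CCL5, AC015849.1, had 0, 3 and 0 reads in the K80R, wild-type ZEB1 and empty vector libraries, and without a stated strand setting reads of such a pair cannot be told apart.

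CCL28, the mucosal chemokine (ENSG00000151882; chromosome 5, 43376645 to 43412391, minus strand), had 0 reads under K80R, 1 read under wild-type ZEB1 and 0 reads under empty vector. Its level was not detectable at this depth, where 3 reads are worth 0.0498, 0.0481 and 0.0417 FPKM in the same order. No fold is given for it.

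CSF1, the macrophage growth factor (ENSG00000184371; chromosome 1, 109910242 to 109930992, plus strand), was the most abundant of the 7 genes in every library, at 21.2 FPKM from 1533 reads in K80R, 36.6 FPKM from 2737 reads in wild-type ZEB1 and 20.9 FPKM from 1803 reads in empty vector. The intervals of K80R and empty vector overlapped, and that of wild type lay above both. K80R was at 0.580 times wild type (0.545 to 0.618) and at 1.01 times empty vector (0.947 to 1.09). The ratio of wild type to empty vector was 1.75 (1.65 to 1.86). When the libraries were rescaled to a common sum of FPKM, which lowered the median gene by 0.36 and 0.39 on the log2 scale for K80R and wild type against empty vector, these last ratios became 0.748 and 1.27.

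CSF2, the granulocyte-macrophage factor (ENSG00000164400; chromosome 5, 132073790 to 132076170, plus strand), was measured by 4 reads (0.382 FPKM) under K80R, 153 reads (14.1 FPKM) under wild-type ZEB1 and 23 reads (1.84 FPKM) under empty vector. This gene alone among the 7 was called higher in wild type and lower in K80R, each against empty vector. The level in K80R was 0.0271 times that in wild type (0.00728 to 0.0707), the smallest such ratio of the 5 genes with a ratio, and 0.207 times that in empty vector (0.0521 to 0.607). Wild type was at 7.66 times empty vector (4.92 to 12.4). The K80R value rests on 4 reads.

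CSF3, the neutrophil factor (ENSG00000108342; chromosome 17, 40015361 to 40017813, plus strand), had 0 reads in K80R, 2 reads in wild-type ZEB1 and 0 reads in empty vector, all at or under the 3-read limit, which is worth 0.101, 0.0980 and 0.0851 FPKM in the same order. No fold is given for it either.

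**Figure D1:**
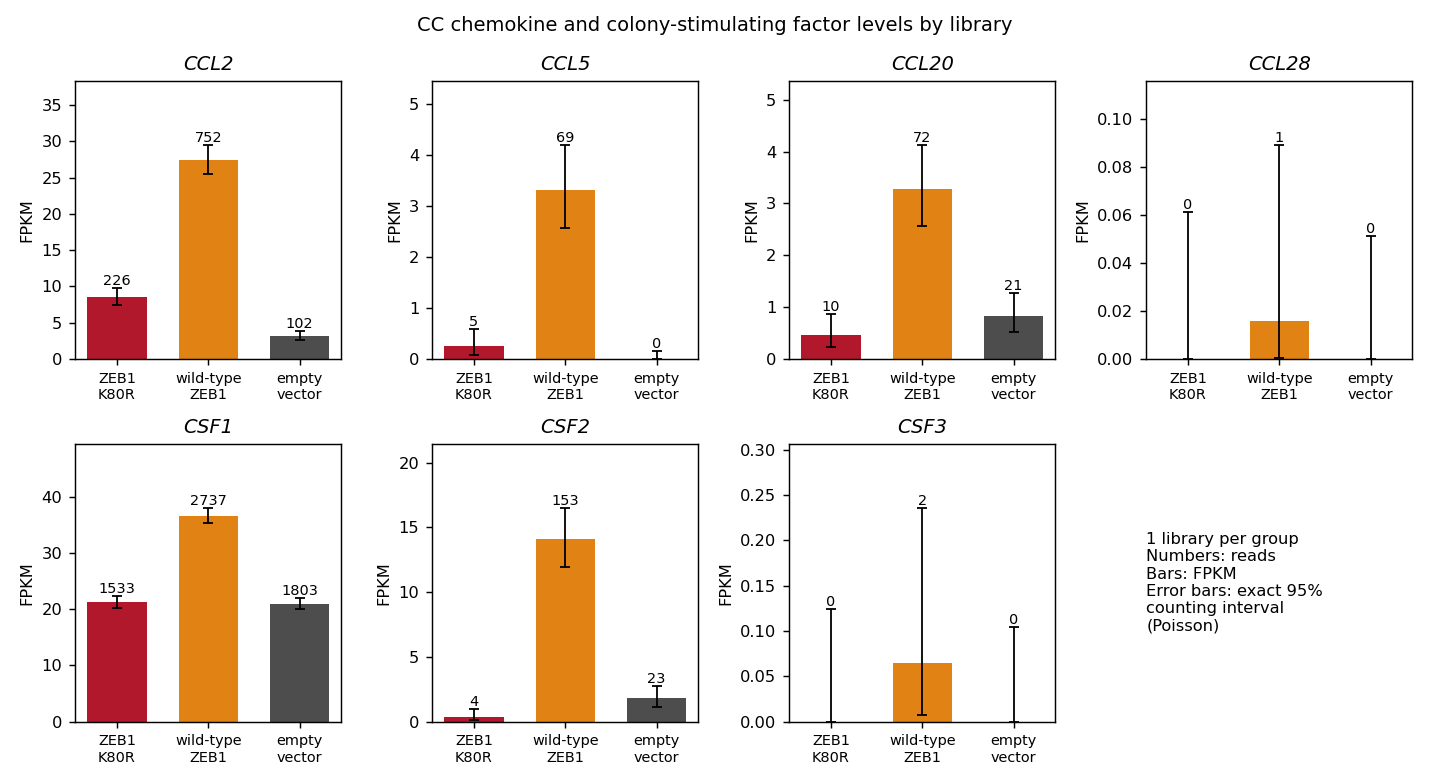
FPKM (vertical axes, each from 0) of the 7 genes in the ZEB1 K80R, wild-type ZEB1 and empty vector libraries, with the number of reads above each bar and exact 95% Poisson counting intervals as error bars (1 library per group). The wild-type ZEB1 bar is the highest in every panel, at 27.4 FPKM for CCL2 and 14.1 FPKM for CSF2, and CCL28 and CSF3 rest on at most 2 reads.

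Among themselves the genes kept CSF1 and CCL2 at the top of each library, and the order below them changed. In the K80R library CCL20, CSF2 and CCL5, at 0.471, 0.382 and 0.248 FPKM, had overlapping intervals and no order could be read between them. In the wild-type ZEB1 library CSF2, at 14.1 FPKM (11.9 to 16.5), stood clearly between CCL2 and the pair CCL5 and CCL20, which at 3.31 and 3.27 FPKM did not differ beyond counting error. In the empty vector library the interval of CSF2 (1.17 to 2.76 FPKM) met both that of CCL2 (2.64 to 3.92) and that of CCL20 (0.513 to 1.27). Measured per length, CSF2 stood to CSF1 at 0.0180 (0.00489 to 0.0461) in K80R, 0.385 (0.325 to 0.453) in wild type and 0.0878 (0.0555 to 0.132) in empty vector. CCL2 stood to CSF1 at 0.402 (0.348 to 0.463), 0.750 (0.691 to 0.813) and 0.154 (0.125 to 0.188) in the same order. Relative to CSF1, therefore, CSF2 was lowest in K80R while CCL2 was lowest in empty vector. The 7 genes summed to 30.9 FPKM in K80R, 84.8 FPKM in wild type and 26.8 FPKM in empty vector.

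For counts across the table, the 12605 genes whose FPKM averaged 1 or more over the 3 libraries were compared, and a gene was called higher or lower when its FPKM + 1 differed 1.5-fold or more. Of the 7 genes, 5 passed this filter, namely CCL2, CCL5, CCL20, CSF1 and CSF2. CCL5 and CCL20 passed through the wild-type ZEB1 library alone and so had to be higher there, which makes these counts a description and not support. In K80R against wild type all 5 were lower and 0 were higher, where 5.18% of the 12605 genes were lower and 4.42% higher. In wild type against empty vector all 5 were higher and 0 lower, beside 14.2% and 11.1% of all genes. In K80R against empty vector 1 was higher (CCL2) and 1 lower (CSF2), beside 12.6% and 13.0% of all genes. With 5 genes in view, counts of 1 lie near this background. The comparisons share libraries, so the wild-type ZEB1 level enters the counts of 5 in both directions and they are not independent.

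**Figure D2:**
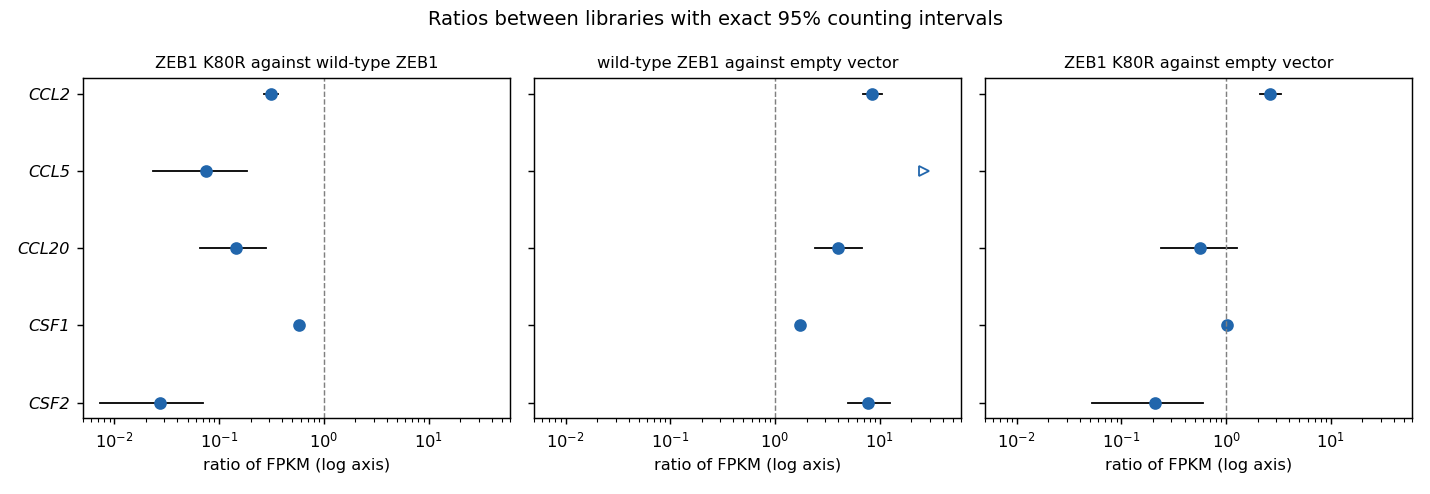
Ratios of FPKM between libraries (horizontal log axes) for the 5 genes that averaged 1 FPKM or more, with exact 95% counting intervals as lines. The open triangle is a lower bound for CCL5 in wild type at the 3-read limit, taking its count as exact, since the empty vector library had 0 reads. No ratio of K80R to empty vector is drawn for CCL5. The points of K80R against wild type all lie left of 1, between 0.0271 for CSF2 and 0.580 for CSF1.

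The ranks that follow are a description, and those of CCL5 and CCL20 are partly fixed by the filter they passed through the wild-type ZEB1 library. Ranked by the difference of log2(FPKM + 1) among 10372 protein-coding genes, CSF2 (−3.45) was the second lowest in K80R against wild type, CCL5 (−1.79) was at rank 25, CCL2 (−1.58) at 28, CCL20 (−1.54) at 30 and CSF1 (−0.76) at 151 from the lowest. From the highest in wild type against empty vector, CCL2 (2.75) stood at rank 13, CSF2 (2.41) at 19, CCL5 (2.11) at 29, CCL20 (1.22) at 199 and CSF1 (0.78) at 683. In K80R against empty vector CCL2 (1.17) stood at rank 119 from the highest and CSF2 (−1.04) at 204 from the lowest, while CCL5 (0.32), CCL20 (−0.31) and CSF1 (0.02) lay well inside the distribution. The pseudocount of 1 shrinks the differences of low genes such as CCL5 and CCL20.

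**Figure D3:**
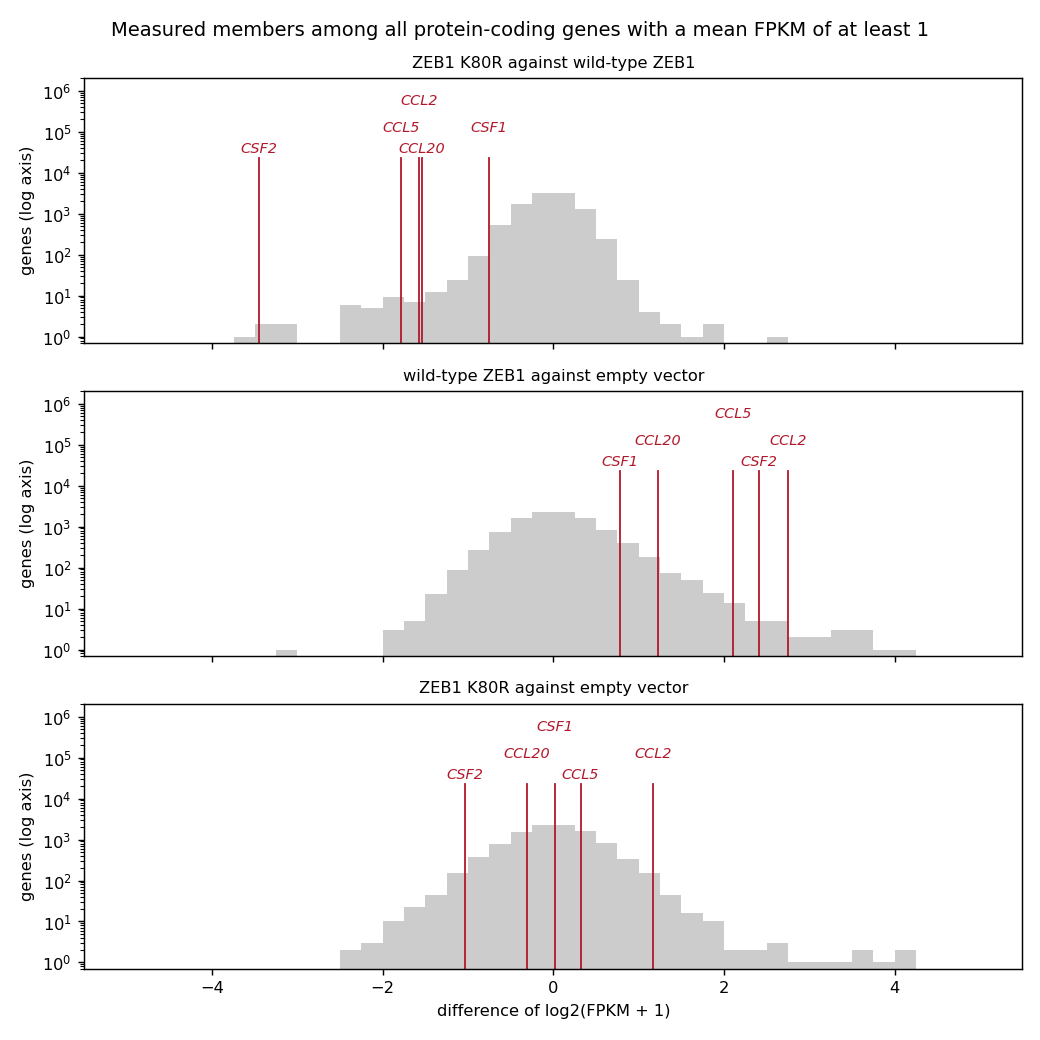
Number of protein-coding genes averaging 1 FPKM or more (vertical log axes, grey bars) by their difference of log2(FPKM + 1) (horizontal axis) in each comparison, with red lines at CCL2, CCL5, CCL20, CSF1 and CSF2. In K80R against wild type the lines lie at −0.76 or below, in wild type against empty vector at 0.78 or above, and in K80R against empty vector on both sides of 0.

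The surrounding genes on the chromosomes mostly did not share these levels. Of 16 CC chemokine genes on chromosome 17 (34255218 to 36212878, a span of 1.96 Mb, read-through genes left out), 9 had 0 reads in all libraries and only CCL2 and CCL5 reached 1 FPKM in any. CCL7, the nearest gene to the right of CCL2 at 13.0 kb and a related monocyte chemokine, had 9 reads in K80R, 10 reads in wild-type ZEB1 and 0 reads in empty vector. For CCL7, K80R stood at 0.932 times wild type (0.335 to 2.55), where CCL2 was at 0.311, and the intervals of both genes (that of CCL2 is 0.267 to 0.362) overlap. HEATR9, 2.60 kb to the left of CCL5, had 1, 3 and 0 reads in the same order.

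Beside CSF2, the haematopoietic cytokine gene IL3, 10.6 kb to its left, had 0 reads throughout. To its right, 116 kb away, the collagen prolyl hydroxylase gene P4HA2 had 8.93 FPKM in K80R, 14.9 FPKM in wild-type ZEB1 and 7.82 FPKM in empty vector. CSF3 was undetected between 2 expressed neighbours: the proteasome subunit gene PSMD3 had 40.4 FPKM in K80R, 40.5 FPKM in wild type and 20.1 FPKM in empty vector, and the mediator subunit gene MED24 had 10.6, 9.61 and 8.67 FPKM. CCL28 likewise lay next to HMGCS1, a cholesterol synthesis gene at 102 FPKM in K80R, 123 FPKM in wild type and 99.2 FPKM in empty vector. The 2 nearest coding genes of CCL20, SCYGR8 and DAW1, had 0 reads in every library.

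The rest of the CC family was almost silent. The list of other CC chemokines held 24 names, of which 22 were in the table, and 14 of these had 0 reads in all libraries and none reached a mean FPKM of 1. CCL3, a macrophage inflammatory protein gene whose reads may be shared with its near-identical copy CCL3L1, was at 0.603 FPKM in K80R, 0.873 FPKM in wild type and 0.843 FPKM in empty vector. CCL26, an eosinophil chemokine, had 6, 1 and 9 reads in the K80R, wild-type ZEB1 and empty vector libraries, so it did not follow the members. CCL4, CCL17, CCL18, CCL19 and CCL3L1 had 1 or 2 reads each, in a single library.

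The receptors of these proteins were low or undetected in all 3 libraries. Of 14 CC chemokine receptors, 4 had 0 reads throughout, among them CCR6, the receptor of CCL20, and none reached a mean FPKM of 1. CCR2, the receptor of CCL2, had 1 read in all. CCR1 was at 1.32 FPKM in K80R, 0.557 FPKM in wild type and 0.484 FPKM in empty vector, and K80R stood at 2.37 times wild type (1.39 to 4.16). CCRL2, an atypical receptor that binds chemerin, had 0.956, 0.663 and 0.226 FPKM in the same order, CCR10 had 0.889, 1.25 and 0.625 FPKM, and ACKR4, a scavenging receptor, had 0.594, 0.319 and 0.443 FPKM. Between K80R and wild type the interval of the ratio held 1 for CCRL2 (1.44, 0.865 to 2.43) and for CCR10 (0.713, 0.436 to 1.15).

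Of the colony-stimulating factor receptors, CSF1R and CSF2RA had reads and CSF2RB and CSF3R had 0 throughout, so both chains of the CSF2 receptor were not seen together. CSF1R stood at 1.34 FPKM in K80R, 1.20 FPKM in wild type and 0.807 FPKM in empty vector, with K80R at 1.12 times wild type (0.826 to 1.52). CSF2RA stood at 1.22, 0.662 and 0.592 FPKM in the same order, with K80R at 1.83 times wild type (1.19 to 2.86), in the opposite direction to its ligand CSF2. IL34, the other ligand of CSF1R, had 1 read in K80R, 1 read in wild type and 0 reads in empty vector. Only CSF1R of this list of 7 reached a mean FPKM of 1, and its FPKM + 1 was within 1.5-fold in each comparison, although its FPKM in K80R was 1.66 times that in empty vector (1.20 to 2.32).

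The CXC chemokines, the nearest relatives of the CC family, differed in the same directions where they were measured. Of 11, only CXCL8 and CXCL3, both neutrophil chemokines, reached a mean FPKM of 1. Both were lower in K80R than in wild type, beside 5.18% of all genes. Both were higher in wild type than in empty vector, beside 14.2%. CXCL1 and CXCL2 were among 4 genes with 0 reads in all libraries. CXCL16, below the filter, had 1.05 FPKM in K80R, 0.830 FPKM in wild type and 0.811 FPKM in empty vector, and did not follow. CXCL8 had 12.5 FPKM in K80R, 179 FPKM in wild type and 9.05 FPKM in empty vector. In K80R against wild type it was the lowest of the 10372 genes, just before CSF2. CXCL3 had 1.62 FPKM in K80R, 13.4 FPKM in wild type and 1.13 FPKM in empty vector. CXCL10 and CXCL11, interferon-induced chemokines, had at most 8 reads in any library.

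Of 8 cytokines known to induce these genes or made beside them, 5 were measured. All 5 were called higher in wild type than in empty vector, beside 14.2% of all genes, and 4 of the 5 were called lower in K80R than in wild type, beside 5.18%. TNF, like CCL5 and CCL20, passed the filter through the wild-type ZEB1 library alone and so had to be higher there. TNF had 3 reads in K80R, 70 reads in wild-type ZEB1 and 2 reads in empty vector, close to the reads of CCL5. IL6 had 0.653 FPKM in K80R, 5.22 FPKM in wild type and 1.13 FPKM in empty vector, and K80R stood at 0.580 times empty vector with an interval, 0.311 to 1.05, that holds 1. IL1A had 8.62, 44.9 and 6.34 FPKM, and IL1B had 42.5, 111 and 30.3 FPKM in the same order. LIF was at 21.5, 32.4 and 15.7 FPKM.

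Of 15 measured NF-κB subunits and inhibitors, 9 were lower and 0 higher in K80R than in wild type, with a median of −0.86, beside 5.18% and 4.42% of all genes. Against empty vector, wild type had 8 higher and 2 lower, with a median of 1.03, beside 14.2% and 11.1% of all genes. K80R had 0 higher and 2 lower than empty vector, with a median of −0.14, beside 12.6% and 13.0% of all genes, so the lower count lies near the background. RELB, a subunit of the non-canonical pathway, was at 4.16 FPKM in K80R, 18.5 FPKM in wild type and 5.99 FPKM in empty vector. BIRC3, an inhibitor of apoptosis that passed the filter through the wild-type ZEB1 library alone, was at 0.429, 4.56 and 0.578 FPKM, TNFAIP3, a feedback inhibitor, at 2.93, 31.8 and 2.41 FPKM, and NFKBIA at 23.4, 69.6 and 15.9 FPKM. CHUK, IKBKB and IKBKG, which encode the subunits of the IκB kinase, were within 1.5-fold between K80R and wild type. Against empty vector, CHUK (0.617 times) and IKBKG (0.524 times) were the 2 genes called lower in wild type. The 2 called lower in K80R were NFKBIE (0.281 times, 0.227 to 0.346) and IKBKG (0.547 times). NFKBIE was within 1.5-fold between wild type and empty vector.

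Other transcription factors known at such promoters were more mixed. Of 12 measured, 7 were lower and 1 higher in K80R than in wild type, with a median of −0.74, beside 5.18% and 4.42% of all genes. JUNB was at 23.3 FPKM in K80R, 65.3 FPKM in wild type and 18.8 FPKM in empty vector, FOSL1 at 104, 193 and 56.9 FPKM, IRF1 at 3.20, 7.97 and 2.56 FPKM, and CEBPD at 2.79, 8.15 and 4.05 FPKM. In wild type against empty vector 5 of the 12 were higher and 0 lower, beside 14.2% and 11.1% of all genes. In K80R against empty vector 1 was higher and 2 were lower, near the 12.6% and 13.0% of all genes.

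Of 9 genes of cytokine mRNA turnover, 3 were lower and 0 higher in K80R than in wild type, beside 5.18% and 4.42% of all genes. ZFP36, which binds AU-rich elements and speeds decay, was at 4.44 FPKM in K80R, 7.93 FPKM in wild type and 1.19 FPKM in empty vector. ZFP36L1, its relative, was at 46.5, 71.6 and 26.5 FPKM, and ZC3H12A, the Regnase-1 endonuclease, at 6.83, 17.3 and 4.46 FPKM. These 3 were the ones lower in K80R than in wild type, and the other 6 of the 9 were within 1.5-fold, with a list median of 0.06. The decay factor KHSRP was at 57.0, 49.9 and 36.4 FPKM. Against empty vector, each overexpression library had 3 of the 9 higher and 0 lower, at medians of 0.30 for K80R and 0.33 for wild type. Of all genes, 12.6% were higher and 13.0% lower in K80R, and 14.2% and 11.1% in wild type. For ZFP36, K80R stood at 3.73 times empty vector (2.57 to 5.53), the opposite direction to CSF2 in that comparison. Wild type stood at 6.67 times empty vector (4.71 to 9.67), the same direction as CSF2. K80R stood at 0.560 times wild type (0.444 to 0.703), also the same direction as CSF2. A part of ZFP36 in the CSF2 level was not tested.

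Genes that bind, trim or release these proteins mostly lay within 1.5-fold. SDC4, a heparan sulphate proteoglycan of the cell surface, was at 46.8 FPKM in K80R, 91.4 FPKM in wild type and 50.7 FPKM in empty vector. It was the only gene of 5 measured to be lower in K80R than in wild type, beside 5.18% of all genes. Against empty vector, SDC4 alone was called higher in wild type (1.80 times), beside 14.2% of all genes. ADAM10 alone was called higher in K80R (1.56 times), beside 12.6%. SDC1, a related proteoglycan, was at 160, 157 and 127 FPKM, the granule proteoglycan gene SRGN at 157, 195 and 151 FPKM, and the sheddase ADAM10 at 18.7, 16.5 and 12.0 FPKM.

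**Figure D4:**
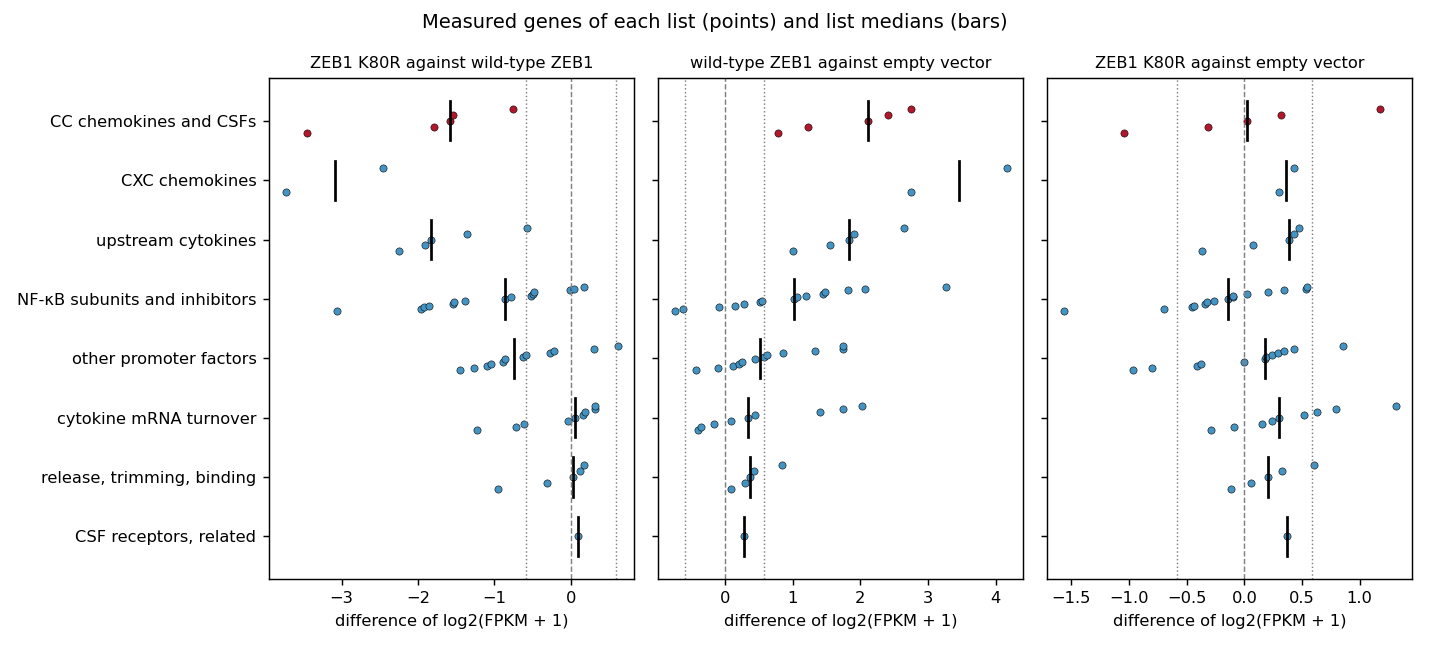
Difference of log2(FPKM + 1) (horizontal axes) of the measured genes of each list (points; the CC chemokines and colony-stimulating factors in red), with list medians as black bars and dotted lines at 1.5-fold, for the 3 comparisons. In K80R against wild type the medians lie at −1.58 for the red points, where all 12605 genes have −0.02, and at 0.06 for cytokine mRNA turnover; CCL5, CCL20, TNF and BIRC3 passed the filter through the wild-type ZEB1 library alone.

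Genes with the most similar profile were sought among the 10372 protein-coding genes, by the Euclidean distance of centred log2(FPKM + 1) over the 3 libraries, too few points to single out a profile. Nearest to CCL20 were the signalling gene IRAK2 (distance 0.0746), TNIP1 (0.124) and TNFRSF9 (0.136). CSF2 had SOD2 (0.291) as its nearest gene, at 2.42 FPKM in K80R, 27.6 FPKM in wild type and 5.74 FPKM in empty vector, then HILPDA (0.742) and IL4I1 (0.852). CCL5 lay nearest to TNF (0.184), NFKBIA (0.194) and DEPP1 (0.221), and CCL2 nearest to NFKBIA (0.542), EGR1 (0.553) and DEPP1 (0.557). The pseudocount shrinks the differences of low genes, so a small distance is not a like ratio. K80R stood at 0.0750 times wild type for CCL5 and at 0.337 times for NFKBIA. CCL5, CCL20, TNF and TNFRSF9 also passed the filter through the wild-type ZEB1 library alone. The modest profile of CSF1 was shared closely by TAGLN3 (0.0175), VASN (0.0201) and ARL2 (0.0260).

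Markers of leukocytes, endothelium and stroma, cells that also make these proteins, were low in every library. The 15 genes of that list summed to 3.72 FPKM in K80R, 4.35 FPKM in wild type and 3.01 FPKM in empty vector, and 10, 9 and 5 of them had reads. PTPRC and CD3E, pan-leukocyte and T cell markers, and PDGFRA and LUM had 0 reads in all libraries, and CD14 had 4, 5 and 0 reads. PDGFRB was at 1.54 FPKM in K80R, 2.19 FPKM in wild type and 0.573 FPKM in empty vector, and COL1A1 at 0.680, 0.930 and 1.70 FPKM. PECAM1 was at 0.426, 0.495 and 0.130 FPKM and ITGAX at 0.732, 0.389 and 0.427 FPKM. The part of other cells in the chemokine levels was not tested.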

How the data were processed

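RNA sequencing had been done on 3 libraries labelled HCT116, 1 per group by the genotype label. Tools listed in the submitters' processing notes, with no role, are featureCounts 1.5.0-p3, CASAVA and DESeq2 1.20.0, with build hg38. Aligner and strand setting: not given in the sources used here. Values were deposited by the authors as FPKM per gene. FPKM times gene length was a whole multiple of 1 step in each library for 100% of values above 0, within 0.05 reads, which gave the reads used for the intervals (Python 3.11.15, SciPy 1.17.1). Read recovery and intervals were tested on simulated data. FPKM is relative to a library size, here recovered as 1.33e+07 (K80R), 1.38e+07 (wild type) and 1.59e+07 (empty vector), which are not the read totals. Mitochondrial reads took 9.75% (K80R), 7.77% (wild type) and 1.29% (empty vector) of reads, and this share enters a rescaling to a common sum of FPKM. All 58735 identifiers were found in GENCODE 29.

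Differences are of log2(FPKM + 1), and ratios are of FPKM. No test of conditions was possible. The members and lists were chosen with earlier results of these data known. Named genes were all members, other CC chemokines with reads, up to 4 genes per list with the largest difference, and the 3 nearest profiles per measured member; neighbours and other genes were named after their values were seen. Alternatives were a pseudocount of 0.1, other filters, 3 rescalings and a ratio of 2.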

Additional observations from a re-analysis of the deposited data

Results flagged for a closer look

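CSF2 was the member called in opposite directions in the overexpression libraries, each against empty vector. Its level in K80R was 0.207 times that of empty vector (0.0521 to 0.607), and its level in wild type was 7.66 times that of empty vector (4.92 to 12.4). Both ratios share the empty vector library, and the difference between them was not tested, since each group had 1 library. The K80R level rests on 4 reads and the empty vector level on 23 reads. The pattern was not particular to CSF2: CCL20 had 0.568 and 3.95 times empty vector in K80R and wild type, RELB 0.693 and 3.09 times, TNIP1 0.793 and 2.14 times, and CEBPD 0.690 and 2.02 times, with the K80R values within the 1.5-fold limit used for calls. SOD2 and IL4I1, named above for profiles near CSF2, passed that limit in both directions. SOD2 had 2.42, 27.6 and 5.74 FPKM in K80R, wild type and empty vector, and IL4I1 had 0.908, 8.29 and 2.14 FPKM.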

How the results depend on the processing

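No paired analysis was possible because each group had 1 library. Of 42 counts of members under an alternative, 35 stayed within 1.5 times the main count. When only genes averaging 5 FPKM or more were kept, the members higher in wild type than in empty vector and those lower in K80R than in wild type were 3 each, since only 3 were tested. Of these 3, CSF2 passed this filter through the wild-type ZEB1 library alone and so had to be higher there. Of the 7029 genes kept, 13.9% were higher and 4.89% lower in these comparisons. In K80R against empty vector, a pseudocount of 0.1 gave 2 higher (CCL2, CCL5) and 2 lower (CCL20, CSF2). Of all genes, 17% were higher and 16% lower at that pseudocount. A common sum gave the same 2 and 2, and a common sum without mitochondrial genes gave 2 higher. The added calls rest on 5 against 0 reads for CCL5 and 10 against 21 reads for CCL20. The counting intervals of each pair overlapped. The other alternatives kept 1 and 1. Beside these, 5% of all genes were higher and 4% lower with no filter or at a ratio of 2. The shares were 11% and 14% among genes averaging 5 FPKM or more, and 13% each when scaled by the median ratio of genes. No member called at 1.5-fold changed sign under another scaling or pseudocount. The ratio of K80R to wild type ran from 0.0271 to 0.0301 for CSF2 and from 0.580 to 0.646 for CSF1 over the scalings, and that of wild type to empty vector from 6.18 to 8.49 for CCL2 and from 1.27 to 1.75 for CSF1. At a common sum CSF1 was no longer among the genes at least 1.5-fold higher in wild type, leaving 4. A common sum lowered most genes and let more pass the filter: of 17153 genes, 11.9% were higher and 37.7% lower in wild type than in empty vector, 12.6% and 35.9% in K80R against empty vector, and 11.3% and 8.57% in K80R against wild type. Without mitochondrial genes (18336 genes) these were 26.1% and 15.3% in K80R against empty vector and 18.1% and 7.51% in K80R against wild type. With 4, 5 and 10 reads, the K80R levels of CSF2, CCL5 and CCL20 are limited by depth, and replicates would be needed to set any of these differences against the spread between cultures.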
